A study of Rattus norvegicus with 8 samples.

Results

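The genes described here encode the 3 large families of liver enzymes that attach a water-soluble group to drugs, steroids, bile acids and reactive by-products. They were taken as every probe set with exactly 1 platform gene symbol that begins with Ugt, Gst (alpha, kappa, mu, omega, pi or theta class) or Sult followed by a number. The rule found 46 probe sets for 42 of the 14217 genes on the array, and where a gene had several, the one with the highest mean across the 8 arrays stood for it. The set held 9 UGT, 19 GST and 14 SULT genes. Another 4 probe sets carried several symbols and were not analysed here. Among them were 2 that list 8 Ugt1a symbols and 1 that lists Gsta5 and Gsta2, so the UGT1A enzymes, Gsta2 and Gsta5 are not represented.

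RNA was measured in livers of male Sprague-Dawley rats, an outbred strain, at 7 weeks of age, with 1 Affymetrix array per liver. The iron-deficient group (4 arrays, from 7 rats given a purified diet without ferric citrate) was set against the control group (4 arrays, from 6 rats given the same diet with it). On day 17, after 1.5 h of feeding, blood hemoglobin in the iron-deficient group stood at 42% of the control level, per the study's description. Which of the rats gave the arrays is not stated, and whole liver was sampled, so fewer cells of a type and less RNA per cell cannot be told apart.

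UDP-glucuronosyltransferases (UGTs) transfer glucuronic acid from UDP-glucuronic acid, glutathione S-transferases (GSTs) add glutathione to electrophiles, and cytosolic sulfotransferases (SULTs) transfer sulfate from the donor PAPS. Conjugates leave hepatocytes through efflux pumps into bile or blood. Many of the genes respond to receptors and factors that sense foreign compounds or oxidants, among them AHR, CAR, PXR and NRF2, and several in rats depend on sex and growth hormone.

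The deposited log2 values have array medians of 7.1199 to 7.1207, and differences between arrays are compressed by an amount that varies between probe sets. The within-group SDs of the 42 genes ran from 1.01e-06 to 0.512. Differences between groups are for that reason given in deposited units, not as folds, and their size is read only against the spread of the same probe set, as the standardised difference (the difference over the within-group SD). All 11 measured hepatocyte markers lay above the 90th percentile of probe set means, as a check of the labelled tissue. Among the conjugation genes, 20 lay above that percentile and 8 below the 25th, where expression above background was not shown: Gsta3, Gsta3l1, Gstm6l, Sult1d1, Sult2a1, Sult6b2, Ugt2b7 and Ugt8.

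No conjugation gene passed the threshold in the values as deposited. In limma with Benjamini-Hochberg adjustment over all probe sets, 0 of 42 were called higher and 0 lower, where 0.0422% of all genes were called (0.0211% higher and 0.0211% lower) and 0.0322% of all probe sets, and the lowest adjusted p was 0.238. At an unadjusted limma p under 0.05 there were 3 of the 42 (Gstp1, Gsta4 and Gstt3), or 7.14%, beside 13.2% of all genes. The groups did not overlap for 1 gene, Gstp1, or 2.38%, beside 7.82% of all genes, with 4.4% lower and 3.42% higher. The ordinary linear model without moderation and the moderated model with trend and robust options also called 0. With any array left out the count stayed at 0, and the lowest adjusted limma p among the genes was between 0.137 and 0.428. Quantile normalization of the deposited values called 9 of the 42, all higher, where it called 5.12% of all genes higher. The 9 were Gsta1, Gstm1, Gstm2, Gsto1, Gstp3, Sult1a1, Sult1c3, Ugt2b15 and Ugt2b35. All lay between percentiles 98.3 and 99.7 of probe set means, so the share over all genes is not matched for level. Sult1b1 and Sult1e1 lay in that range too and were not called. The count was 0 once the probe set of Hamp, the iron hormone hepcidin, was left out of that normalization, where 0.183% of all genes were called higher.

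Of the 42 genes, 18 were higher and 24 lower in iron-deficient livers in the values as deposited. That split depended on scaling, with 28 higher and 11 lower under quantile normalization, 9 higher and 19 lower with Hamp left out of it, and 29 higher and 13 lower under median centring. In both quantile normalizations the remaining genes differed by 0, among them Gstm1, Gsto1 and Gstp3 with Hamp left out. The median standardised difference was -0.20 for the 42 genes and -0.07 for all genes, and the median of its absolute size was 0.653 and 0.687. A standardised difference beyond 1 in either direction was found for 11 genes, or 26.2%, beside 33.8% of all genes.

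**Figure D1:**
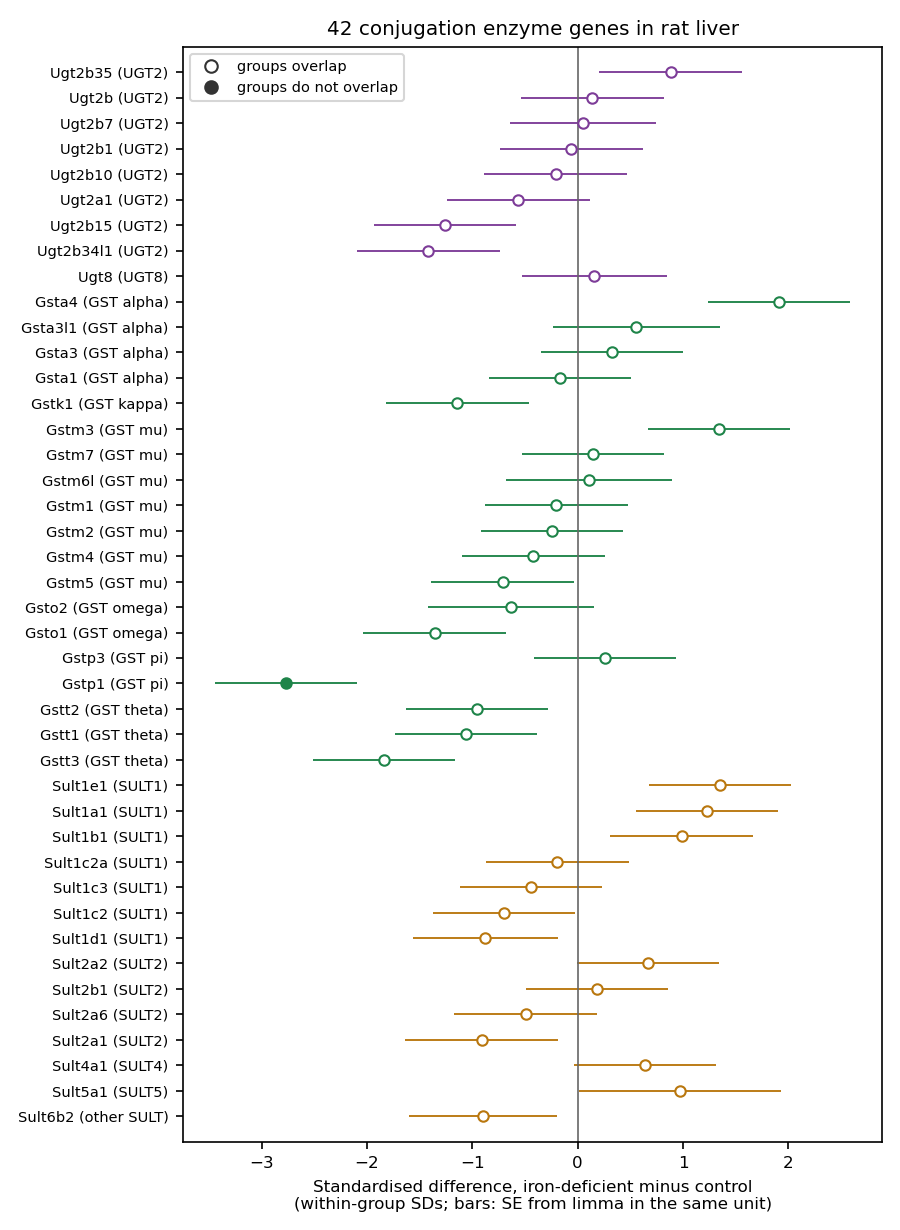
Standardised difference (iron-deficient minus control, in within-group SDs, with SE from limma) for each of the 42 conjugation enzyme genes, grouped by family and coloured by enzyme type. The points run from -2.77 to 1.91, and only that of Gstp1, drawn filled, belongs to a gene whose 4 iron-deficient and 4 control livers do not overlap.

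**Figure D2:**
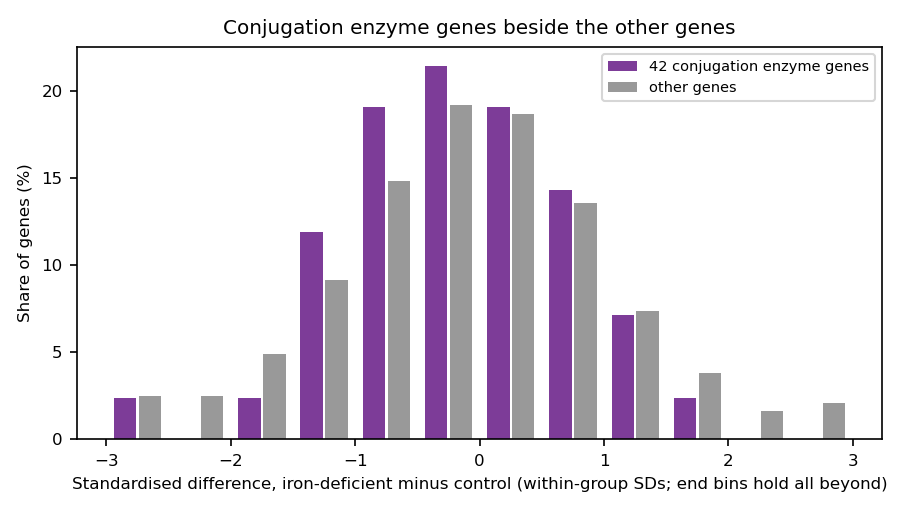
Share of genes (%) by standardised difference in bins of 0.5 within-group SDs, for the 42 conjugation enzyme genes (left bar of each pair) and the 14175 other genes (right bar), with the end bins holding all values beyond. Both sets are centred near 0, and the bins of 2 SDs and more above 0 hold other genes and no conjugation gene.

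Gstp1, the pi-class GST known in rats as the placental form, which is scarce in normal hepatocytes, present in bile duct cells and a marker of preneoplastic foci, had the largest absolute standardised difference of the set. It read 9.13404, 9.13397, 9.13396 and 9.13403 in iron-deficient livers, against 9.13410, 9.13408, 9.13407 and 9.13411 in control livers. All 4 iron-deficient livers lay below all 4 controls. The difference was -8.66e-05 ± 2.12e-05 (SE, 4 livers a group, as for all differences here), or -2.77 within-group SDs, and its adjusted limma p was 0.238. The difference turned to 1.38e-04 under quantile normalization. It stayed below 0 without the Hamp probe set in that normalization (-1.47e-04) and under median centring (-3.61e-05). The groups overlapped under all 3 scalings. There 1.39%, 2.09% and 0.197% of all genes, in that order, had groups apart and lower, against 4.4% as deposited. Median centring raised the SE to 2.25e-04, so overlap under it says little about this gene. Of the 7 measured bile duct cell markers, 4 were higher and 3 lower, none with groups apart. Their mean distance from the control mean, in within-group SDs, ran from -0.357 to 0.709 in iron-deficient and from -0.519 to 0.642 in control livers, and 1 of them, Krt7, lay below the 25th percentile. The part of that cell type in the Gstp1 values was not tested.

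Gstp3, the neighbouring pi-class gene, did not share the pattern. It read 12.03367, 12.03422, 12.03423 and 12.03439 in iron-deficient livers, against 12.03402, 12.03393, 12.03434 and 12.03394 in control livers. The groups overlapped throughout, with a difference of 6.81e-05 ± 1.75e-04 and an adjusted p of 0.933 in limma. The 250 bases before each start site are shown because the pair are neighbours on chromosome 1 and the only gene of the set without overlap is one of them. The start is that of the transcript RefSeq's promoter table uses. The sequences are from RefSeq on build GRCr8, at chr1:210769706-210769955 for Gstp1 and chr1:210787685-210787934 for Gstp3, both on the minus strand, 5′ to 3′, with capitals marking the AP-1 site TGACTCA, searched on both strands.
Gstp1: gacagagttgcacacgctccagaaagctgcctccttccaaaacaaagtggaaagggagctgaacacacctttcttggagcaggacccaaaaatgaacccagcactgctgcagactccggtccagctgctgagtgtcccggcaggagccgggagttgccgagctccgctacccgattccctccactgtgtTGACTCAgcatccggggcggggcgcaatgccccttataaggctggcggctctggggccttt
Gstp3: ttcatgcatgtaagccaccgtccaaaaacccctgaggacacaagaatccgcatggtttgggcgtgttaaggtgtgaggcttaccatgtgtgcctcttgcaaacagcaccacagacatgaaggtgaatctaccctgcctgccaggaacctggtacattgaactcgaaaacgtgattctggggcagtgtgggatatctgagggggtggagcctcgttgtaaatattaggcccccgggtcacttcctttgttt

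The Gstp1 window holds 1 such site, which begins 61 bases before the start and is also a match to the core of the antioxidant response element, TGACNNNGC. The Gstp3 window holds neither. Promoter windows were at hand for 37 of the 42 genes. TGACTCA was found in 2 of them (5.41%, Gstm5 and Gstp1) and in 4.05% of all 33469 promoters, and TGACNNNGC in 4 (10.8%, with Gsta3 and Gstm7) and in 10.1%. The core of the xenobiotic response element, GCGTG, was found in 8 (21.6%) and in 25.9% of all promoters. These matches are letters in a window, not tested sites.

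Among the other GST genes, Gsta4, an alpha-class enzyme that conjugates the lipid peroxidation product 4-hydroxynonenal, was the member furthest above 0. It read 11.04859, 11.04866, 11.04862 and 11.04869 in iron-deficient livers, against 11.04861, 11.04855, 11.04856 and 11.04858 in control livers. Iron-deficient replicates 2, 3 and 4 lay above every control and replicate 1 within their range. The difference was 7.15e-05 ± 2.53e-05, or 1.91 within-group SDs (adjusted p = 0.375 in limma), and it was 0 under quantile normalization without Hamp. Gsta1, one of the abundant liver GSTs, differed by -1.80e-04 ± 7.34e-04 and Gsta3 by 1.21e-04 ± 2.51e-04.

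All 3 theta-class genes, whose enzymes act on small halogenated compounds, were lower in the deposited values, but 2 of 3 were higher under quantile normalization, 1 under median centring and 1 under quantile normalization without Hamp. Gstt3 read 9.478, 9.512, 9.424 and 9.511 in iron-deficient livers, against 9.576, 9.598, 9.492 and 9.590 in control livers. Iron-deficient livers lay below control replicates 1, 2 and 4, and control replicate 3 lay among them. The difference was -0.0831 ± 0.0306 (standardised difference -1.84, limma adjusted p = 0.391) and held between -0.0831 and -0.0825 under the 3 other scalings. Gstt1 differed by -2.12e-05 ± 1.35e-05 and Gstt2 by -1.93e-04 ± 1.36e-04, while the second Gstt2 probe set differed by 2.23e-05 ± 1.98e-05.

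Gstk1, the mitochondrial and peroxisomal kappa form, differed by -3.55e-04 ± 2.11e-04 (standardised difference -1.14), with 3 of 4 iron-deficient livers below every control. It moved to -9.42e-04 under quantile normalization without Hamp, where it was the one conjugation gene with groups apart (adjusted p = 0.331 in limma). In that setting 2.09% of all genes had groups apart and lower and 1.10% higher. Gsto1, an omega-class enzyme with dehydroascorbate reductase activity, differed by -3.06e-05 ± 1.52e-05 (-1.36), again with 3 of 4 below every control, and turned higher under quantile normalization and median centring. The 7 mu-class genes, which conjugate many foreign electrophiles, split into 3 higher and 4 lower, with standardised differences from -0.71 (Gstm5) to 1.34 (Gstm3, 4.20e-05 ± 2.11e-05), but Gstm3 turned lower when quantile normalization was run without Hamp. Gstm1, Gstm2, Gstm4, Gstm6l, Gstm7, Gsta3l1 and Gsto2 all lay within 0.64 within-group SDs of 0.

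**Figure D3:**
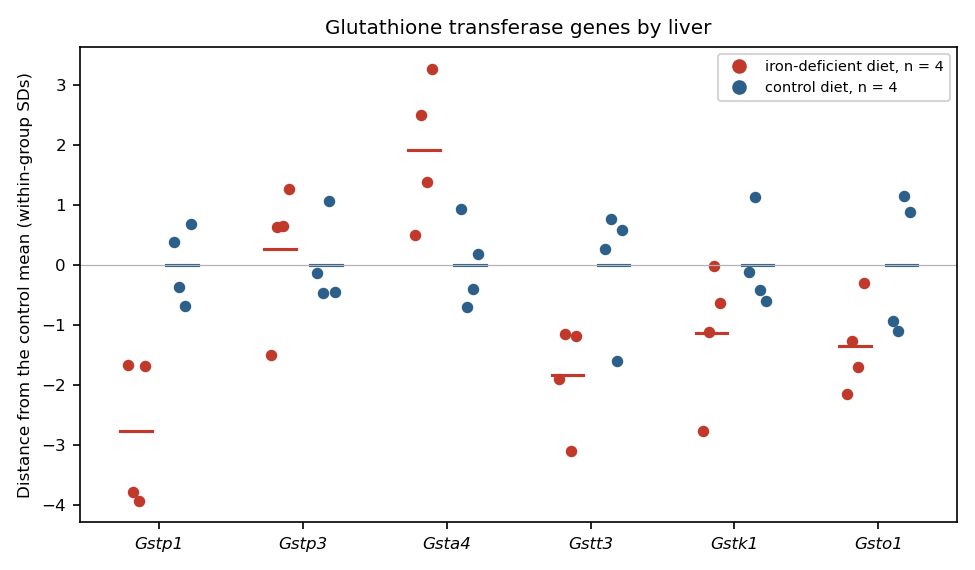
Distance of each liver from the control mean, in within-group SDs, for 6 GST genes, with iron-deficient livers to the left of control livers and the group mean as a bar. The Gstp1 groups are apart, whereas those of the other 5 genes overlap.

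The 8 UGT2 genes, whose enzymes glucuronidate steroids, bile acids and drugs, all lie on chromosome 14 in RefSeq, and 3 were higher and 5 lower. Ugt2b, listed by RefSeq also as Ugt2b2 and known in rats for conjugating androsterone, read low in 1 liver of each diet. It read 10.28, 9.65, 10.44 and 10.49 in iron-deficient livers, against 10.51, 10.39, 9.23 and 10.45 in control livers. Iron-deficient replicate 2 and control replicate 3 were low, and the other 6 livers lay between 10.28 and 10.51. A second Ugt2b probe set read 7.48, 6.53, 7.99 and 8.14 in iron-deficient livers, against 8.22, 7.78, 6.32 and 8.00 in control livers, and was lowest in the same pair of livers. The mean was 10.22 ± 0.387 for the iron-deficient diet and 10.14 ± 0.613 for the control diet (SD, n = 4 each), a difference of 0.0717 ± 0.346 (limma adjusted p = 0.969). The sign was not settled, with -0.0460 ± 0.540 for the second probe set and -0.234 when control replicate 3 was left out.

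**Figure D4:**
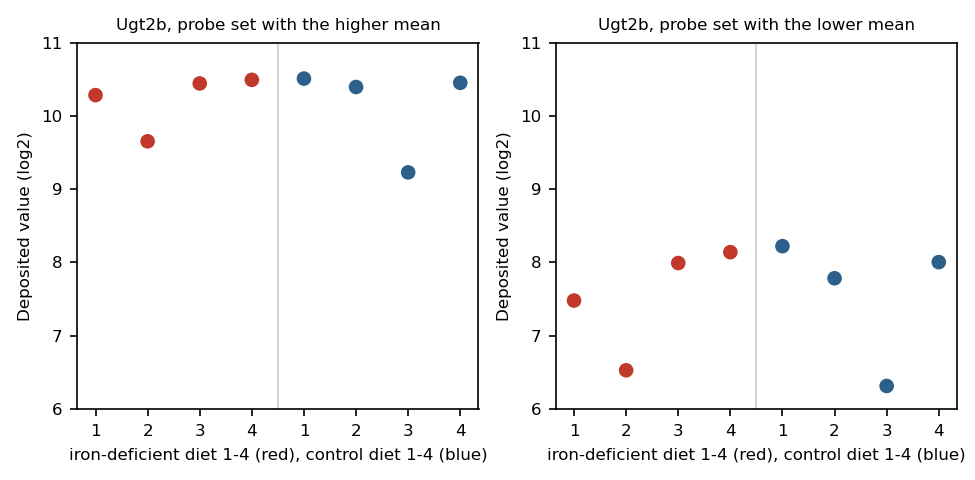
Deposited log2 values of the 2 Ugt2b probe sets in each liver, with iron-deficient livers 1 to 4 on the left and control livers 1 to 4 on the right, on an axis from 6 to 11. In both probe sets iron-deficient replicate 2 and control replicate 3 lie below the other livers.

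In none of the neighbouring UGT2 genes were those livers the lowest pair. In Ugt2a1 both were low, at -1.29 and -1.12 within-group SDs from the control mean, but iron-deficient replicate 1 was lowest (-1.74). Ugt2b1, which rats induce with phenobarbital, read 10.43418, 10.43135, 10.43581 and 10.43542 in iron-deficient livers, against 10.43513, 10.43431, 10.43387 and 10.43380 in control livers. Here iron-deficient replicate 2 was lowest, but control replicate 3 lay beside control replicate 4. The largest absolute standardised difference of the family was -1.42, for Ugt2b34l1 (-2.20e-04 ± 1.05e-04, limma adjusted p = 0.497), with 3 of 4 iron-deficient livers below every control. Ugt2b15 followed at -1.26 (-2.68e-05 ± 1.44e-05) and turned higher under quantile normalization and median centring. Ugt2b35 (2.31e-05 ± 1.77e-05), Ugt2a1 (-5.46e-05 ± 6.58e-05), known from olfactory epithelium, Ugt2b10 (-1.11e-05 ± 3.57e-05) and Ugt2b7 (2.31e-07 ± 3.12e-06) lay closer to 0. Ugt8, the ceramide galactosyltransferase of myelin, differed by 8.68e-07 ± 3.78e-06, and its second probe set by 1.24e-05 ± 5.41e-06.

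Among the 7 SULT1 genes, 3 were higher and 4 lower. Sult1e1, which sulfates estrogens, had the largest standardised difference of the SULT genes. It read 12.8390, 12.8406, 12.8367 and 12.8394 in iron-deficient livers, against 12.8365, 12.8375, 12.8379 and 12.8374 in control livers. Iron-deficient replicates 1, 2 and 4 lay above every control and replicate 3 among them. The difference was 0.00164 ± 8.24e-04 (standardised difference 1.35, limma adjusted p = 0.519), and it turned to -0.00145 under quantile normalization without Hamp. Sult1a1, the main phenol sulfotransferase, differed by 2.34e-05 ± 1.29e-05 (1.23) and Sult1b1, which acts on thyroid hormones, by 2.78e-05 ± 1.91e-05 (0.99). Sult1c2 (-0.0101 ± 0.00979), Sult1c2a (-0.00141 ± 0.00498), Sult1c3 (-6.72e-06 ± 1.03e-05) and Sult1d1 (-4.75e-06 ± 3.72e-06) were lower in the deposited values by less than 1 within-group SD.

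The SULT2 enzymes sulfate hydroxysteroids and bile acids, and the SULT2A forms are female-predominant in rat liver. Sult2a6 read 9.511, 9.449, 9.498 and 9.554 in iron-deficient livers, against 9.552, 9.516, 9.509 and 9.502 in control livers. The iron-deficient livers spanned the whole control range, and the difference was -0.0169 ± 0.0231 (limma adjusted p = 0.848). Sult2a2 differed by 7.89e-04 ± 8.01e-04 and Sult2a1 by -2.36e-06 ± 1.89e-06, with a standardised difference of -0.91 that turned above 0 under median centring. The 2 probe sets of Sult2b1, an enzyme of cholesterol and pregnenolone sulfation, differed by 1.50e-05 ± 5.52e-05 and -1.89e-06 ± 2.84e-06. Sult4a1, a brain form, differed by 2.43e-04 ± 2.56e-04, Sult5a1 by 9.84e-07 ± 9.73e-07 and Sult6b2 by -3.34e-06 ± 2.60e-06, and none of the 3 exceeded 1 within-group SD.

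Genes that supply, regulate or follow conjugation were taken from 7 lists, 102 measured genes in all, and 0 were called in limma, with 14 (13.7%) at an unadjusted p under 0.05, beside 13.2% of all genes. The groups did not overlap for 6 of the 102, 4 higher and 2 lower, beside 7.82% of all genes. Of 14 measured genes of sulfate donor supply and sulfate removal, 6 were higher and 8 lower, and 2 had groups apart, both higher. Papss2, an enzyme that makes PAPS, read 11.3342, 11.3352, 11.3337 and 11.3328 in iron-deficient livers, against 11.3317, 11.3324, 11.3322 and 11.3323 in control livers. The difference was 0.00183 ± 4.91e-04 (standardised difference 2.52, limma adjusted p = 0.268), and it stayed above 0 under all 3 other scalings, with groups that overlapped under quantile normalization without Hamp. A second Papss2 probe set differed by 0.00362 ± 7.34e-04 (limma adjusted p = 0.171), higher in 4 of 4 iron-deficient livers than in any control. Bpnt1, a phosphatase that clears the by-product PAP, differed by 3.03e-05 ± 7.60e-06 (2.70, limma adjusted p = 0.248). Its groups overlapped under all 3 other scalings, at 7.95e-04 under quantile normalization, 4.83e-04 without Hamp and 8.08e-05 under median centring. Of all genes, 7.29%, 1.10% and 0.528% had groups apart and higher in those settings, so overlap under median centring says little.

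Of 7 genes of UDP-glucuronic acid supply and glucuronide cleavage, 2 were higher and 5 lower. Ugdh, which makes UDP-glucuronic acid, differed by -1.87e-04 ± 1.19e-04. Of 19 glutathione genes, 8 were higher and 11 lower, and Cbs, an enzyme of cysteine supply, had groups apart (1.02e-04 ± 3.16e-05, 2.18, limma adjusted p = 0.323). Under quantile normalization Cbs stood at 4.46e-04 and was called (adjusted p = 0.0358 in limma), while its groups overlapped without Hamp and under median centring. In the latter settings 1.10% and 0.528% of all genes had groups apart and higher. Gclc, the rate-limiting enzyme of glutathione synthesis, differed by 7.43e-05 ± 4.18e-04. Of 8 efflux pump genes, 2 were higher and 6 lower, with no groups apart.

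Of 22 conjugating enzymes of other families, 9 were higher and 13 lower, and As3mt, an arsenic methyltransferase, had groups apart (-5.73e-05 ± 1.46e-05, -2.65, limma adjusted p = 0.25), but turned higher under quantile normalization. Of 15 regulators, 4 were higher and 11 lower, and Keap1, which holds NRF2 in check, had groups apart (-3.00e-05 ± 8.16e-06, -2.50, limma adjusted p = 0.272). It stayed lower under quantile normalization (-3.45e-04, groups overlapping) and without Hamp (-5.94e-04, groups apart, limma adjusted p = 0.271). In the latter setting 2.09% of all genes had groups apart and lower. Keap1 turned above 0 under median centring (2.05e-05), which adds the same amount to every difference. A second Keap1 probe set differed by -9.89e-06 ± 6.39e-06 (-1.05, limma adjusted p = 0.626), and its groups overlapped. Of 21 targets of AHR, CAR, PXR and NRF2 outside the 3 families, 12 were higher and 9 lower, and Cyp1a2, a cytochrome P450 controlled by AHR, had groups apart. It read 11.624, 11.620, 11.624 and 11.624 in iron-deficient livers, against 11.603, 11.598, 11.609 and 11.605 in control livers. The difference was 0.0194 ± 0.00242 (5.43, limma adjusted p = 0.0735). Limma called it under median centring (adjusted p = 0.00121) and quantile normalization with (0.00204) and without the Hamp probe set (0.0473). The fit on gene means also called Cyp1a2 (limma adjusted p = 0.0489). With 1 probe set, its values there are the deposited ones, and only the rows fitted and adjusted over differ, so that call adds no separate support. Of the other AHR targets in the list, Nqo1 differed by 0.0127 ± 0.00415 (2.07, limma adjusted p = 0.342) and Cyp1b1 by 2.66e-06 ± 1.27e-06 (1.68), each with 3 of 4 iron-deficient livers above every control. Aldh3a1 differed by 1.88e-06 ± 1.45e-06 (1.00), Tiparp by 4.84e-06 ± 9.62e-06 (0.34) and Cyp1a1 by -4.12e-05 ± 1.18e-04 (-0.23). Elsewhere in the list, Ephx1 differed by -6.56e-04 ± 1.84e-04 (-2.40, limma adjusted p = 0.284) and Alas1 by -0.00582 ± 0.00250 (-1.58). Each had 3 of 4 iron-deficient livers below every control, and Ephx1 turned above 0 under quantile normalization (1.37e-04).

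**Figure D5:**
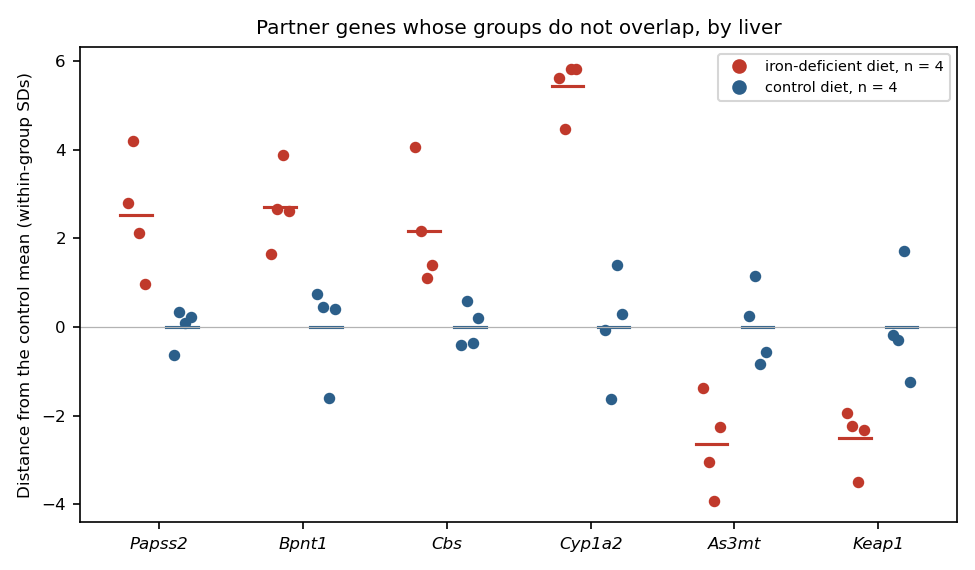
Distance of each liver from the control mean, in within-group SDs, for the 6 partner genes whose groups do not overlap, with iron-deficient livers to the left of control livers and the group mean as a bar. Papss2, Bpnt1, Cbs and Cyp1a2 lie above, and As3mt and Keap1 below, all 4 control livers.

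No marker of any cell type was called in limma, but the groups of several lay apart, beside 7.82% of all genes (3.42% higher). Of 9 endothelial markers, 8 were higher and 7 had groups apart, with a mean distance from the control mean of 2.57 to 3.76 within-group SDs in iron-deficient and -0.36 to 0.22 in control livers. Of 10 stellate cell markers 8 were higher and 3 had groups apart, and of 8 macrophage markers 8 were higher and 2 had groups apart. Of the 11 hepatocyte markers, 6 were higher and 5 lower, and 1 (9.09%) had groups apart. Of 7 lymphocyte markers 2 were higher and none had groups apart, and of 6 erythroid markers 4 were higher and 1 had groups apart. The part of these cell types in the values of the conjugation genes was not tested.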

How the data were processed

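The authors deposited 1 table of log2 values for 31099 probe sets on 8 arrays, a unit read from the values, which run from 5.32 to 16.1. Each array received biotinylated cRNA prepared from 2 ug of RNA, per the labels' protocols. For the probe summary and the array normalisation, the method was not given in the sources used here. After 57 control probe sets were left out, limma 3.58.1 (lmFit, then eBayes) under R 4.3.3 compared iron-deficient with control livers on all 31042, with Benjamini-Hochberg adjustment over them and a threshold of 0.05. The labels call the arrays biological replicates, and 4 of them in a group limit how precise a value can be. Names of probe sets were taken from the platform annotation. Of the 42 genes, 41 matched RefSeq by gene ID and 1 by accession. Single probe sets may not separate near-identical paralogs, which was not tested.

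The members, lists and tests were chosen with earlier results of these data known. The naming rule took members past the threshold or with groups apart, otherwise the member of each family with the largest absolute standardised difference, and partner genes likewise. Ugt2b, the other members and the partner genes without groups apart that are given with values were named after their values were seen. Same-numbered arrays did not pair, with correlations of deviations between -0.11 and 0.02. Alternatives were scaling, filtering, variance model, probe set choice, a replicate block and leaving out each array. The limma script was tested on simulated data.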

Additional observations from a re-analysis of the deposited data

Results flagged for a closer look

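In 9 of 84 groups of 4 livers, from 8 of the 42 genes, 1 liver lay apart from the other 3 by Dixon's test for a single outlying value. For normally distributed values, chance flags about 1 in 20 groups. The share flagged over all genes was not counted, so an excess among the conjugation genes is not shown. The widest in deposited units was Ugt2b, where control replicate 3 read 9.229 and the other controls 10.39 to 10.51. Sult1c2 was highest in control replicate 2 at 7.0764, with the others at 7.0494 to 7.0536. Sult4a1 was highest in iron-deficient replicate 3 at 6.82238. Gstm7 was highest in control replicate 2 at 10.63537. Iron-deficient replicate 2 was lowest for Sult1a1 at 13.04019 and highest for Sult1d1 at 5.726055. Ugt2b15 was lowest in control replicate 4 at 12.23801, with the other controls at 12.23806 to 12.23807. Gsto2 was lowest in iron-deficient replicate 3 at 7.2377400 and in control replicate 2 at 7.2377380. No cause was tested for any of them.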

How the results depend on the processing

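No conjugation gene was called under 16 of the 17 alternatives, and under quantile normalization 9 were called, all higher, with 18 partner genes and 728 higher and 50 lower of all genes. Those 9 were Gsta1, Gstm1, Gstm2, Gsto1, Gstp3, Sult1a1, Sult1c3, Ugt2b15 and Ugt2b35. The same 9 had groups apart and higher, and 0 lower, where 7.29% of all genes had groups apart and higher and 1.39% lower. When that normalization omitted Hamp, 0 conjugation genes, 1 partner gene (Cyp1a2), and 26 higher and 26 lower of all genes were called. Median centring called 1 partner gene (Cyp1a2) and 32 higher and 6 lower of all genes, with 0 conjugation genes apart. Under it 0.528% of all genes had groups apart and higher and 0.197% lower. Gene means called 1 partner gene (Cyp1a2) and 27 higher and 17 lower of all genes, against 3 and 3 in the values as deposited. The gene means were adjusted over genes and the deposited values over all probe sets, so these counts differ in more than the averaging. The lower calls came to 1 with trend and robust options and to 1 in the ordinary model. With the replicate number as a block 0 higher and 0 lower of all genes were called, and the lowest adjusted p among the conjugation genes was 0.232, for Gstt3. With an array left out, 1 to 7 of all genes were called higher and 0 to 3 lower, and 0 to 2 conjugation genes had groups apart and higher and 1 to 4 lower, with Gstp1 among them each time, where 4.33% to 5.99% of all genes had groups apart and higher and 5.51% to 7.68% lower. The sign of 19 conjugation genes turned under quantile normalization, of 10 without Hamp and of 11 under median centring, and values follow for those, and for the partner genes, that the naming rule took. Quantile normalization turned, among these, Gsto1 (0.00213), Gstp1 (1.38e-04), Sult5a1 (-1.23e-04), Sult6b2 (5.36e-05) and As3mt (0.00300). Without the Hamp probe set they included Gstm3 (-2.45e-05), Sult1e1 (-0.00145), Sult5a1 (-2.10e-04) and Sult6b2 (5.36e-05). Under median centring, which adds the same amount to every difference, they included Gsto1 (2.00e-05), Sult2a1 (4.82e-05), Sult6b2 (4.72e-05) and Keap1 (2.05e-05). Ugt2b turned to -0.0460 with the second probe set, and with an array left out it ranged from -0.234 (without control replicate 3) to 0.260, also below 0 without iron-deficient replicate 3 (-0.00321) or 4 (-0.0195). Ugt8 then ranged from -2.46e-06 (without control replicate 1) to 2.63e-06, with -2.26e-08 and -3.70e-07 without iron-deficient replicate 3 or 4, and Sult4a1 from -1.93e-06 (without iron-deficient replicate 3) to 3.53e-04. Beyond these constructions the cause was not tested. A missing call at 4 arrays per group does not show that a gene was unchanged.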
